A study of Mus musculus with 6 samples.

Results

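Zinc leaves the cytosol through transporters of the Slc30a (ZnT) family and is buffered inside cells by the metallothioneins, and 10 genes of these families were followed in the mouse cerebellum. They were chosen by symbol: 7 exporters (Slc30a1, Slc30a3, Slc30a4, Slc30a5, Slc30a6, Slc30a7 and Slc30a9) and 3 metallothioneins (Mt1, Mt2 and Mt3). All 10 were found once each among 55098 listed genes, and all 10 passed the filter on low counts. RNA-seq was run on the whole cerebellum of 6 mice, all male and at postnatal day 60, with 3 libraries labelled wild type for Slc39a14 (WT, animals 1, 3 and 5) and 3 labelled Slc39a14 knock-out (KO, animals 2, 4 and 6). Each animal gave 1 library. Slc39a14 encodes ZIP14, which carries manganese, zinc and iron into cells, and the series treats the knock-out as a model of a childhood dystonia with parkinsonism caused by manganese. The sources used here do not name the strain, the tissue range of the knock-out or the part of the gene removed.

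Most ZnT proteins move zinc away from the cytosol, either out of the cell or into vesicles and organelles. ZnT9 (Slc30a9), a transporter of mitochondria, is called an exporter here by its family and not by this direction. Metallothioneins are small proteins rich in cysteine that bind zinc and copper. When free zinc rises, the zinc-sensing transcription factor MTF1 binds metal response elements and raises Mt1, Mt2 and Slc30a1. In the brain Mt1 and Mt2 are known mainly from astrocytes, and Mt3 from neurons and astrocytes. The ZnT protein known for manganese, encoded by Slc30a10, is not among the 10 genes.

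The core of the metal response element was searched as TGCACNC and TGCGCNC, on both strands, in windows from 250 bases before to 50 bases after each RefSeq start site (GRCm38.p6). All 10 genes had a window, and Slc30a3 had 2. The sequences of Mt1, Mt2, Mt3 and Slc30a1 are shown 5′ to 3′ because the 3 metallothioneins can be compared there with the exporter that MTF1 is known to act on. Capitals mark the matches to the element on either strand, and none of them overlap.
Mt1: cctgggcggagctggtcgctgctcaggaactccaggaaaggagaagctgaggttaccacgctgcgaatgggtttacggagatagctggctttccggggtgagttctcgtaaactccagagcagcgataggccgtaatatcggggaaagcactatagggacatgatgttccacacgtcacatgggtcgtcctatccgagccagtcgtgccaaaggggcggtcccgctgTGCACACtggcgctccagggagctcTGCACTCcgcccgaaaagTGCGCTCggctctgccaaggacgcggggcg
Mt2: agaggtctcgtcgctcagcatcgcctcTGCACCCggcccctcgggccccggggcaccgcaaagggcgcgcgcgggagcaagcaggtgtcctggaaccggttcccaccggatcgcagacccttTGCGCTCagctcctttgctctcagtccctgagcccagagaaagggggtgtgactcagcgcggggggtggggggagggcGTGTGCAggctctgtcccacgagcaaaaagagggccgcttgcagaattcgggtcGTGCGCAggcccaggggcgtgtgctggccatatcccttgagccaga
Mt3: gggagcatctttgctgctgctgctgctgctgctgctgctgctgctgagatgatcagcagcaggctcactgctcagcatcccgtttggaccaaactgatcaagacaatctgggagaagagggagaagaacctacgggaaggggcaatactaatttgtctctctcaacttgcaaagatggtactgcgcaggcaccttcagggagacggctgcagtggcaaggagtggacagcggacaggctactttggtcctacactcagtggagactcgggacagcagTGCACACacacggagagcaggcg
Slc30a1: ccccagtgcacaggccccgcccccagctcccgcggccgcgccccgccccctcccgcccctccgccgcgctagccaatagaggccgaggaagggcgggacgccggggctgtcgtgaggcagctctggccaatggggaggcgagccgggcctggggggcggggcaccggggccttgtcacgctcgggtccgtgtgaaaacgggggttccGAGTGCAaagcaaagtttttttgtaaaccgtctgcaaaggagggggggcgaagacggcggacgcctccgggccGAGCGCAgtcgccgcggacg
The windows lie on the plus strand at chr8:94178839-94179138 (Mt1), chr8:94172368-94172667 (Mt2), chr8:94152357-94152656 (Mt3) and chr1:191906531-191906830 (Slc30a1). Mt2 had 4 matches, Mt1 had 3, Slc30a1 had 2 and Mt3 had 1. Of all 32851 windows of 300 bases, 25.7% held at least 1 match, 7.11% at least 2, 1.97% at least 3 and 0.517% at least 4. The first base of each Mt1 match lay at -23, 3 and 21 from the start site, so that the 3 fell close together, while those of Mt2 were spread from -223 to 5. These positions and the number of matches depend on the start site used. For Mt2 the listed gene begins at 94172664, near the end of its window. Among the other exporters, Slc30a4 had 3 matches in a window that was 81.7% G and C, Slc30a5 had 1 and Slc30a3 had 1 in 1 of its windows. Slc30a6, Slc30a7 and Slc30a9 had none. A match describes the letters of the window and not a bound site.

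Total gene counts ranged from 13805997 to 15788135 per library. Slc39a14, the gene named by the genotype, was counted 582, 646 and 598 times in WT animals 1, 3 and 5, while KO animals 2, 4 and 6 gave 654, 572 and 640 (log2 fold change -0.003, SE 0.11, edgeR quasi-likelihood test, Benjamini-Hochberg adjusted p = 1.00). Its count thus did not check the labels, and WT and KO stand below for the libraries labelled so. Cerebellar markers were abundant in every library, with the granule cell gene Cbln3 at 1144 to 1336 CPM (counts scaled to library size, with TMM factors) and the Purkinje cell gene Itpr1 at 3417 to 4066 CPM. The libraries also differed in the summed markers of other cells. Choroid plexus markers, 12 of 12 tested, 0 called and none at 0, summed to 165 to 786 CPM in WT and 640 to 1908 CPM in KO, lowest in WT 5 and highest in KO 4. Microglia markers, 10 of 10 tested, 0 called and none at 0, summed to 116 to 127 CPM in WT and 146 to 189 CPM in KO. Log2 fold changes of the 10 microglia markers were all positive but uneven, from 0.001 for P2ry12 to 1.01 for Ctss. A list of 15 interferon response genes, 6 of them called and all higher in KO, summed to 37.0 to 47.2 CPM in WT and 133 to 181 CPM in KO. Over all tested genes 8 of 17142 (0.0467%) were called, and this list was chosen with earlier results of these data known. In whole tissue, fewer cells of a type and less RNA per cell cannot be told apart.

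Per base of gene model, the metallothioneins Mt1 and Mt3 were the most abundant of the 10 genes and the synaptic vesicle transporter Slc30a3 the least. The deposited FPKM (fragments scaled to gene length and library size) were used here, because levels can be compared between genes only per length. Over the 6 libraries Mt1 stood at 172 ± 34.5 FPKM, Mt3 at 66.3 ± 8.08, Slc30a9 at 16.1 ± 1.70, Slc30a4 at 14.4 ± 1.41, Slc30a5 at 7.28 ± 0.721 and Slc30a1 at 5.98 ± 0.863 (SD, n = 6). Slc30a6 followed at 4.62 ± 0.480 FPKM, Slc30a7 at 2.72 ± 0.257, Mt2 at 1.79 ± 0.957 and Slc30a3 at 1.30 ± 0.280 (SD, n = 6). Neighbours in this order were compared within libraries by an exact two-sided sign-flip permutation test over the 6 libraries, whose smallest p is 0.03125. From Mt1 down to Slc30a7 each gene was above the next in 6 of 6 libraries (exact p = 0.03125 and adjusted p = 0.0402 for each of 7 pairs). The ratio in these pairs ran from 1.12 (Slc30a9 over Slc30a4) to 4.12 (Mt3 over Slc30a9). Slc30a7 was above Mt2 in 5 of 6 libraries (exact permutation p = 0.0625, adjusted p = 0.0703) and Mt2 above Slc30a3 in 4 of 6 (exact permutation p = 0.8125, adjusted p = 0.8125), so these neighbours did not differ beyond their spread.

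**Figure D1:**
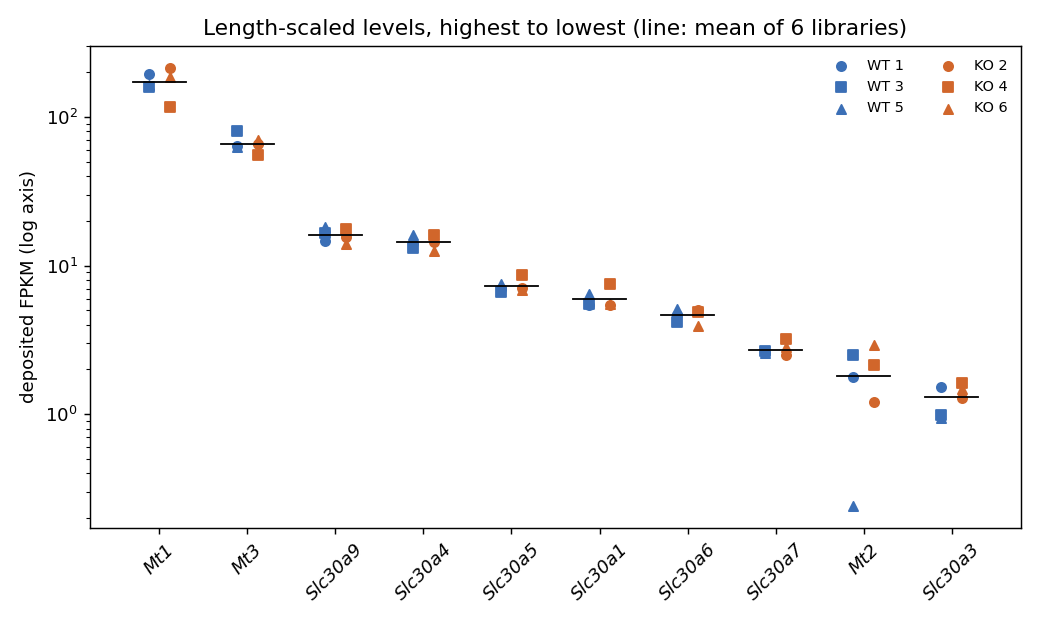
Deposited FPKM on a log axis for each gene, ordered from the highest to the lowest mean, with WT libraries in blue and KO libraries in orange and the mean of 6 libraries as a line. Mt1 and Mt3 lie above all exporters, and the points of Mt2 spread far more than those of its neighbours, with WT 5 the lowest.

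The lengths behind these values count every exonic base of every annotated transcript. For Mt1 that length is 1246 bases, although its longest principal transcript has 549, and for Slc30a9 it is 12374 against 5711. Scaled to the longest principal transcript, an alternative added after the data were seen, Mt1 (410 ± 83.1 CPM per kilobase) and Mt3 (138 ± 16.7) were again at the top and Slc30a3 at the bottom (1.86 ± 0.406; SD, n = 6). On that scale Slc30a5 (17.5 ± 1.75) moved above Slc30a4 (15.2 ± 1.46), and Slc30a6 (6.91 ± 0.711) moved above Slc30a1 (6.27 ± 0.902; SD, n = 6). The order within those pairs thus rests on the length used. By the same exact permutation test Slc30a6 and Slc30a1 were not told apart on that scale (adjusted p = 0.141), nor were Mt2 and Slc30a3 (adjusted p = 0.844), while Slc30a7 and Mt2 were (adjusted p = 0.0402).

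No exporter and no metallothionein passed the test between KO and WT cerebellum. Of the 10 genes 0 were called by edgeR at an adjusted p under 0.05, against 8 of all 17142 tested genes (0.0467%), all higher in KO. At an unadjusted p under 0.05 the members again gave 0, against 2.75% of all tested genes. DESeq2 also called 0 of the 10, with 38 of 32040 genes (0.119%) called in all, and limma-voom called 0 of the 10. The CPM of the groups overlapped in all 10 genes, while they did not overlap in 7.26% of all tested genes (3.58% higher and 3.68% lower in KO). The log2 fold change was positive in 7 of the 10 and negative in 3, with a median of 0.05, and for all tested genes 48.8% were positive with a median of -0.004. The authors' deposited table lists log2 fold changes from -0.10 (Mt3) to 0.47 (Mt2) for these genes, with an adjusted p of 1.00 for each.

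**Figure D2:**
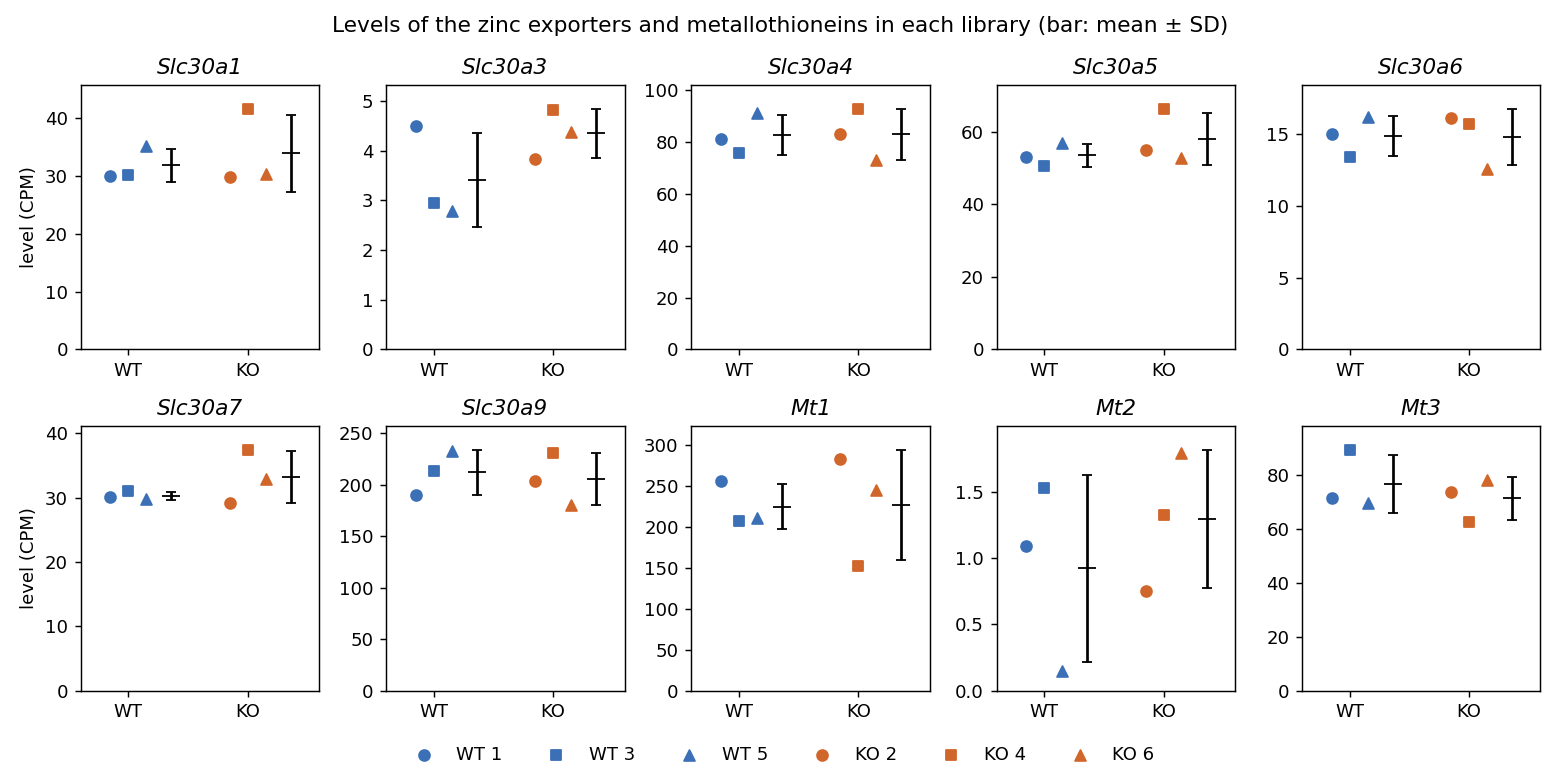
Level in CPM (axis from 0) of each gene in each of the 6 libraries, WT in blue and KO in orange, with the mean ± SD (n = 3) of each group beside the points. In every gene the KO points overlap the WT points, and KO 4 is the highest library for 5 of the 7 exporters and the lowest for Mt1.

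Slc30a1 encodes ZnT1, the exporter of the plasma membrane (chromosome 1, 191906767 to 191913247, GRCm38.p6). It stood at 30.1, 30.2 and 35.2 CPM in WT animals 1, 3 and 5, while KO animals 2, 4 and 6 had 29.9, 41.6 and 30.4 CPM. KO 4 was apart from the other 5 libraries, and KO 2 lay below every WT library. KO minus WT was 0.09 in log2 (SE 0.15, 95% interval -0.25 to 0.43, edgeR adjusted p = 1.00), and -0.08 without KO 4. Of its 5244 exonic bases 468 (8.9%) are shared with 1700034H15Rik on the opposite strand, which had 64 to 108 counts per library.

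Slc30a3 encodes ZnT3, which loads zinc into synaptic vesicles and is known mainly from forebrain neurons (chromosome 5, 31086106 to 31108237). Its counts were few, 62, 46 and 38 in WT animals 1, 3 and 5, while KO animals 2, 4 and 6 gave 61, 69 and 61. In CPM this was 4.50, 2.94 and 2.79 in WT and 3.84, 4.82 and 4.38 in KO. WT 1 lay among the KO libraries, and the other WT libraries lay below them. The log2 fold change of 0.35 had the widest interval among the exporters (SE 0.26, 95% interval -0.22 to 0.92, edgeR adjusted p = 1.00). Forebrain excitatory neuron markers were measured beside it: 6 of 10 passed the filter on low counts, and their summed level was 78.1 to 94.6 CPM in WT and 72.5 to 91.4 CPM in KO. Their mean deviation in log2 CPM was 0.35 in KO 4 and -0.20 to 0.01 in the other 5 libraries. The part of these markers in the level of Slc30a3 was not tested.

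Slc30a4 encodes ZnT4 of endosomes and lysosomes (chromosome 2, 122681233 to 122702663). It was at 81.2, 75.6 and 91.1 CPM in WT animals 1, 3 and 5, while KO animals 2, 4 and 6 had 83.2, 92.5 and 72.9 CPM. Both groups held a high and a low library, and KO minus WT was 0.004 in log2 (SE 0.12, 95% interval -0.26 to 0.27, edgeR adjusted p = 1.00).

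Another 3 exporters serve the early secretory pathway, where zinc is loaded onto enzymes such as alkaline phosphatase, and none of them passed the test. Slc30a5 and Slc30a6 encode the partners of the ZnT5 and ZnT6 heterodimer, and Slc30a7 encodes ZnT7 of the Golgi. Slc30a5 (chromosome 13, 100802648 to 100833427) was at 52.9, 50.7 and 56.8 CPM in WT animals 1, 3 and 5, while KO animals 2, 4 and 6 had 54.9, 66.3 and 52.8 CPM. KO 4 was again the highest and the other libraries of both groups mixed (log2 fold change 0.12, SE 0.12, 95% interval -0.15 to 0.38, edgeR adjusted p = 1.00).
Slc30a6 (chromosome 17, 74395621 to 74424221) was at 15.03, 13.4 and 16.2 CPM in the WT libraries, while the KO libraries had 16.2, 15.7 and 12.6 CPM, in the same order of animals, with KO 6 the lowest (log2 fold change -0.004, SE 0.15, 95% interval -0.35 to 0.34). The ratio of the partners, Slc30a5 over Slc30a6 in FPKM, was 1.51 ± 0.0647 in WT and 1.65 ± 0.198 in KO (SD, n = 3 each; exact two-sided permutation p = 0.4, where 3 against 3 cannot go below 0.1). Slc30a7 (chromosome 3, 115938973 to 116007406) was at 30.1, 30.9 and 29.7 CPM in the WT libraries, while the KO libraries had 29.2, 37.4 and 33.0 CPM. The WT libraries were tight and KO 2 lay below all of them (log2 fold change 0.13, SE 0.12, 95% interval -0.14 to 0.41, edgeR adjusted p = 1.00). Of the exonic bases of Slc30a7, 16.0% are shared with a pair of opposite-strand pseudogenes that had 0 counts in every library.

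Slc30a9 encodes ZnT9, a transporter of mitochondria (chromosome 5, 67306955 to 67358443). It was the exporter with the most counts, at 190, 213 and 233 CPM in WT animals 1, 3 and 5, while KO animals 2, 4 and 6 had 204, 231 and 181 CPM. The highest library was WT 5 and the lowest KO 6, and KO minus WT was -0.05 in log2 (SE 0.12, 95% interval -0.31 to 0.22, edgeR adjusted p = 1.00).

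As fold limits, the 95% intervals of Slc30a4, Slc30a5, Slc30a7 and Slc30a9 together ran from a level 19.3% lower to 32.6% higher in KO. For Slc30a1 and Slc30a6 they ran from 21.5% lower to 34.8% higher. For Slc30a3 the interval reached from 14.2% lower to 89.5% higher. These intervals are per gene and not adjusted for the number of genes.

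**Figure D3:**
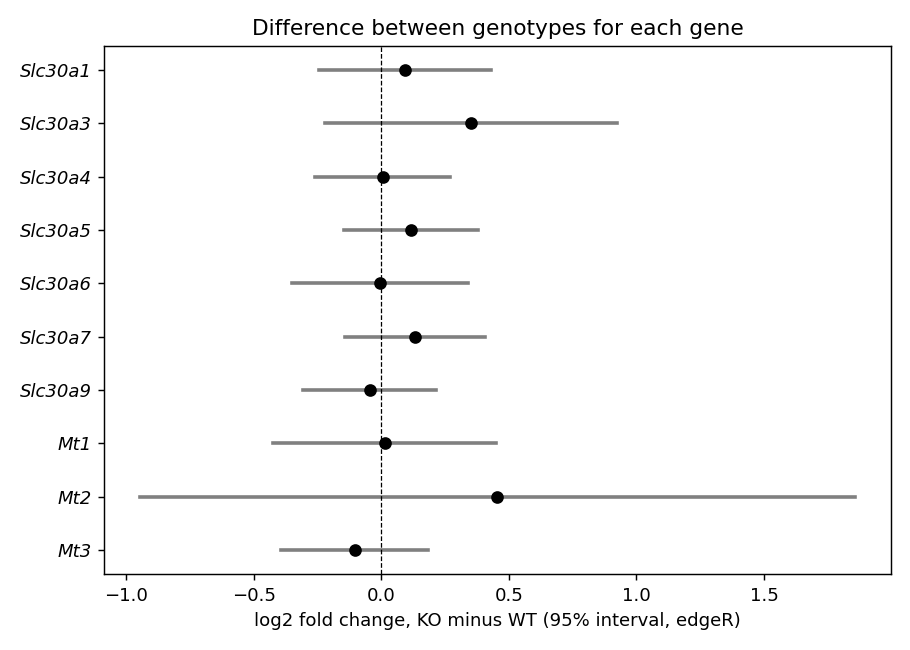
Log2 fold change of each gene, KO minus WT (points), with its 95% interval (lines) from the edgeR fit. All 10 intervals cross 0, and those of Mt2 and Slc30a3 are the widest.

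Mt1, the most abundant of the 10 genes, had nearly the same mean in both genotypes and a wide spread among the KO animals. The gene lies on chromosome 8 (94179082 to 94180327), in a cluster with Mt2 (94172664 to 94173568) and Mt3 (94152607 to 94154146). Mt1 was at 256, 206 and 211 CPM in WT animals 1, 3 and 5, while KO animals 2, 4 and 6 had 282, 152 and 245 CPM. KO held both the highest and the lowest library, with the WT libraries between them. Mean CPM was 224 ± 27.4 for WT against 226 ± 66.7 for KO (SD over 3 libraries; log2 fold change 0.01, SE 0.20, 95% interval -0.42 to 0.45, edgeR adjusted p = 1.00). Leaving out KO 2 gave -0.18 and leaving out KO 4 gave 0.24.

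Mt3, a metallothionein known mainly from the nervous system, was steadier. It stood at 71.5, 89.2 and 69.8 CPM in WT animals 1, 3 and 5, while KO animals 2, 4 and 6 had 73.7, 62.6 and 78.1 CPM, with WT 3 the highest and KO 4 the lowest. KO minus WT was -0.10 in log2 (SE 0.13, 95% interval -0.39 to 0.18, edgeR adjusted p = 1.00). The ratio of Mt1 to Mt3 in FPKM was 3.06, 1.98 and 2.59 in WT 1, 3 and 5 and 3.28, 2.08 and 2.68 in KO 2, 4 and 6 (exact two-sided permutation p = 0.7, smallest possible 0.1). It was lowest in WT 3 and KO 4 and highest in WT 1 and KO 2, so that it varied within each group over nearly the same range.

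Mt2 had few counts beside its neighbour Mt1, whose FPKM was 54.2 to 678 times as high. WT animals 1, 3 and 5 gave 15, 24 and 2 counts, while KO animals 2, 4 and 6 gave 12, 19 and 25. The exact 95% Poisson interval, which covers counting error only, was 0.242 to 7.22 counts in WT 5 and 15.4 to 35.7 in WT 3. WT 5 lay apart on the low side, and the other 5 libraries of both groups mixed. Mean CPM was 0.922 ± 0.707 for WT against 1.29 ± 0.521 for KO (SD over 3 libraries; log2 fold change 0.45, SE 0.63, 95% interval -0.95 to 1.86, edgeR adjusted p = 1.00). Without WT 5 the log2 fold change was -0.03, so that its sign rested on that library.

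The gene model of Mt2 overlaps another gene in a way that those of Mt1 and Mt3 do not. In GENCODE M21, whose gene limits match those of 98.3% of the listed Ensembl genes found in it, the single exon of the antisense gene Gm45774 (chromosome 8, 94170748 to 94173412) covers 432 of the 588 exonic bases of Mt2, or 73.5%, on the opposite strand. It covers the first and second exon of the principal transcript whole and 77 of the 233 bases of the third, and all 300 bases of the Mt2 window printed above. Mt1 and Mt3 share 0 exonic bases with other genes. Gm45774 itself was counted 9, 4 and 3 times in WT animals 1, 3 and 5, while KO animals 2, 4 and 6 gave 9, 2 and 6. The sources used here do not say whether the counting used strand or what it did with reads that fall in 2 genes, so the level of Mt2 is uncertain. Among protein-coding genes with over 75% of their exonic bases inside opposite-strand exons, 0 of 91 reached a mean of 10 FPKM. Among those with above 50% to 75%, the class that holds Mt2, it was 11 of 124 (8.87%). Among those with above 0 to 50% it was 1376 of 5070 (27.1%), and with no overlap 3462 of 16666 (20.8%). The classes were not matched in other traits. The part of the overlap in the low count of Mt2 was not tested.

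**Figure D4:**
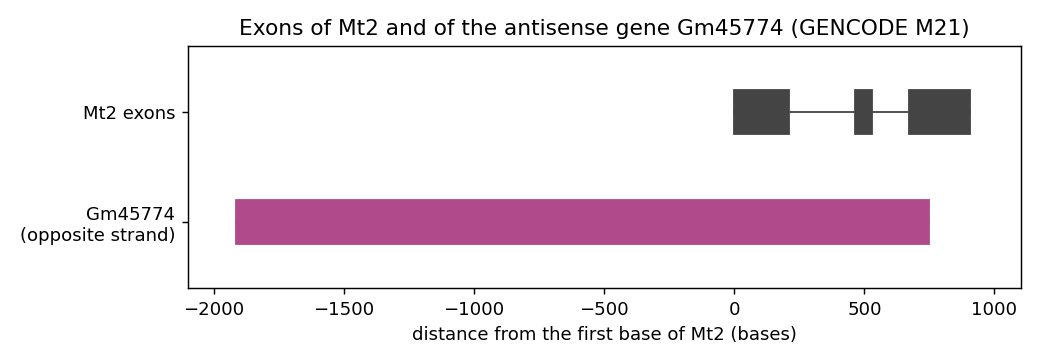
Exons of the principal Mt2 transcript (dark boxes, joined by a line) and the single exon of Gm45774 on the opposite strand (purple box), drawn to scale by distance in bases from the first base of Mt2. The antisense exon covers the first and second Mt2 exon and 77 bases of the third.

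No correlation between the 3 metallothioneins over the 6 libraries passed a test. In log2 CPM, Pearson's r was -0.06 for Mt1 and Mt2 (exact permutation p = 0.868), 0.40 for Mt1 and Mt3 (p = 0.435) and 0.33 for Mt2 and Mt3 (p = 0.471). Spearman's rho was -0.31, 0.26 and 0.54 for the same pairs (exact permutation p = 0.564, 0.658 and 0.297). Adjusted over the 3 pairs, the p-values of r were 0.868, 0.706 and 0.706, and those of rho were 0.658 for each pair. Without the 2 libraries farthest from the median of the first gene of each pair, r was 0.41, -0.41 and 0.50, so that the sign turned in the first and second pair.

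The spread within groups was wider for Mt1 and Mt2 than for the exporters. The SD of log2 CPM within groups was 0.35 for Mt1, above 77.4% of all tested genes or level with them, and 1.04 for Mt2 (98.9%). It was 0.18 for Mt3 and between 0.13 (Slc30a7) and 0.28 (Slc30a3) for the exporters, with a median of 0.21 over all tested genes. For Mt2, with 2 to 25 counts per library, the SD also holds counting error, which was not separated from differences between animals. Among the exporters KO 4 was the highest library for 5 of 7 and WT 5 for the other 2, while over all tested genes 20.3% were highest in KO 4 and 22.7% in WT 5. WT 5 was also the lowest library for Slc30a3 and below the mean for Slc30a7. KO 4 and WT 5 were together the top pair for 4 of the 7 exporters and for 20.0% of all tested genes. KO 4 was also the library with the highest choroid plexus markers and WT 5 the one with the lowest. The exporters were above their mean in KO 4 by 0.09 to 0.35 in log2 CPM, and the part of these markers in the levels of the exporters was not tested.

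**Figure D5:**
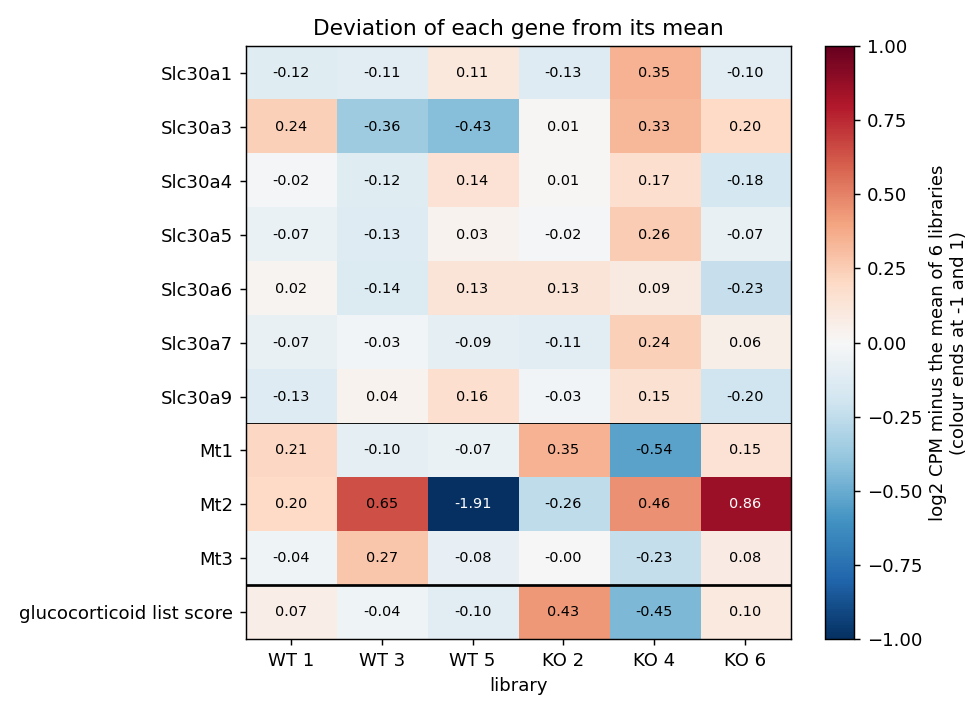
Log2 CPM of each gene in each library minus its mean over the 6 libraries (red above, blue below, with the value printed), and in the last row the mean deviation of 16 genes of the glucocorticoid response. Exporters are above their mean in KO 4, where Mt1 is 0.54 below its mean, and the last row is highest in KO 2 and lowest in KO 4, as is Mt1.

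Mt1 is also a known target of the glucocorticoid receptor, and a list of 16 glucocorticoid response genes was measured beside it. Their mean deviation in log2 CPM was 0.07, -0.04 and -0.10 in WT 1, 3 and 5 and 0.43, -0.45 and 0.10 in KO 2, 4 and 6. It was thus highest in KO 2 and lowest in KO 4, the libraries where Mt1 was highest and lowest. Of the 16 genes 10 had both their highest level in KO 2 and their lowest in KO 4, against 3.42% of all tested genes. The transcription factor gene Klf9 was at 200.3, 201 and 206 CPM in WT and, in the order KO 2, 4 and 6, at 213, 175 and 185 CPM. The kinase gene Sgk1 was at 154, 151 and 157 CPM in the WT libraries, while the KO libraries had 197, 88.5 and 108 CPM, in the order of animals 2, 4 and 6. Fkbp5, a chaperone of the receptor named after its values were seen, was at 11.3, 13.5 and 10.8 CPM in the WT libraries, while the KO libraries had 31.3, 11.1 and 24.1 CPM. Its lowest library was thus WT 5. KO 2 was the highest library for 13 of the 16 genes. Of the others, Dusp1 was lowest in KO 2, at 31.2 CPM, Pdk4 was highest in WT 5, at 25.9 CPM, and Per1 was highest in WT 1, at 166 CPM. The relation of Mt1 with the score had Pearson's r = 0.96 (exact permutation p = 0.00556) and Spearman's rho = 0.89 (exact permutation p = 0.0333), and r was 0.90 without KO 2 and KO 4. This p of r was the smallest among 45 relations computed between the 3 metallothioneins and 15 gene lists, and none passed adjustment (adjusted p = 0.25 for r and 0.578 for rho). The next smallest was that of the forebrain neuron markers (r = -0.93, exact permutation p = 0.0139, adjusted p = 0.3125), where r was -0.36 without KO 2 and KO 4. With so few libraries left, r without KO 2 and KO 4 cannot show whether either relation holds. For the choroid plexus markers, r with Mt1 was -0.15 over the 6 libraries and 0.99 without WT 5 and KO 4. The value of 0.99 rests on too few libraries to show a relation. The part of the glucocorticoid list or of the forebrain markers in the level of Mt1 was not tested. Between genotypes 0 of the 16 genes passed the edgeR test, with a median log2 fold change of 0.002.

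Astrocytes and Bergmann glia are the cells best known for Mt1. The summed level of their markers was 5141 to 5524 CPM in WT and 5272 to 5566 CPM in KO, and all 12 were tested with 0 called (median log2 fold change 0.06). Slc1a3, the glutamate transporter of these cells, had a mean of 1346 CPM (SD 78.1) over 3 WT libraries against 1314 CPM (SD 71.2) over 3 KO libraries. Within groups the median SD of log2 CPM over the 12 markers was 0.21, as it was over all tested genes. The mean deviation of these markers and Mt1 had Pearson's r = -0.29 (exact permutation p = 0.613) and Spearman's rho = -0.20 (exact permutation p = 0.714, adjusted p = 0.942 and 1.00).

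The genes most like each metallothionein over the 6 libraries were sought among 12163 tested genes of at least 5 CPM. For Mt1 they were Cemip, Wwp2 and Stau1 (Pearson's r = 0.993, 0.993 and 0.992), for Mt3 Itgb1bp1, Magee1 and Aff3 (0.993, 0.987 and 0.982), and for Mt2 Gm10241, Patz1 and Vrk3 (0.990, 0.989 and 0.988). Over 6 libraries r was above 0.9 for 1.13% of these genes with Mt1, 1.26% with Mt2 and 1.54% with Mt3. The named genes were picked by r itself, so their high r was set by the choice. The Mt2 profile rested on 2 to 25 counts per library.

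Other zinc handling genes also did not pass the test. The list held the ZIP importers, the remaining ZnT genes, Mt4, the zinc sensor Mtf1 and the vesicular zinc transporter Tmem163, 20 genes in all, of which 16 were tested and 0 were called (7 positive, 9 negative, median log2 fold change -0.004). Slc39a10 and Slc39a3, importers and the list's most abundant genes, had log2 fold changes of -0.004 (SE 0.10) and -0.04 (SE 0.12). Further genes are named for their known role or after their values were seen. Mtf1 was tight, at 45.1, 42.8 and 43.6 CPM in WT animals 1, 3 and 5, while KO animals 2, 4 and 6 had 42.9, 42.8 and 43.3 CPM (KO minus WT in log2 -0.03, SE 0.10). The manganese exporter gene Slc30a10 was at 14.1, 12.5 and 12.4 CPM in WT animals 1, 3 and 5, while KO animals 2, 4 and 6 had 18.1, 13.6 and 15.2 CPM. KO 4 lay within the WT range and the other KO libraries above it (log2 fold change 0.26, SE 0.16, edgeR adjusted p = 1.00). At an unadjusted p under 0.05 there were 4 genes, Slc39a4 (log2 fold change 2.14), Slc39a2 (-0.54), Tmem163 (-0.27) and Slc39a6 (-0.24), each with an edgeR adjusted p of 1.00. These are 4 of the 16, against 2.75% of all tested genes. The groups did not overlap in Slc39a4, Tmem163, Slc39a6 and Slc39a7, 4 of the 16, against 7.26% of all tested genes. Of the genes that were not tested, Slc30a2 had 48 counts over the 6 libraries, Slc30a8 had 1, Slc39a5 had 55 and Mt4 had 0. For Mt4, an observed count of 0 leaves room for an expected count of up to 3 in any library.

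Secreted and membrane enzymes that take up zinc in the secretory pathway, which Slc30a5, Slc30a6 and Slc30a7 supply, were counted as well. Of 12 genes 12 were tested and 0 were called (6 positive, median log2 fold change -0.004). Enpp2, also abundant in choroid plexus, was at 598, 303 and 284 CPM in WT animals 1, 3 and 5, while KO animals 2, 4 and 6 had 850, 1377 and 417 CPM (KO minus WT in log2 1.16, SE 0.40, edgeR adjusted p = 1.00). It was highest in KO 4 and lowest in WT 5, the order of the choroid plexus markers, whose part in it was not tested. Enpp5 had a mean of 279 CPM in WT against 272 CPM in KO, with a log2 fold change of -0.03 (SE 0.10).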

How the data were processed

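Total RNA was extracted with TRIZOL and a company made the libraries, per the labels' protocols. The counting program, its strand setting, read length and all versions are not stated there. The submitters' processing notes list HISAT2, DESeq2 and the build GRCm38.p6. The deposited counts are whole numbers per gene and not normalized. The deposited FPKM are scaled to gene length and a library total by the authors. The deposited group means are a signal, the counts divided by size factors; they were not used. For their own comparison the authors deposited a log2 fold change and a p-value per gene.

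Group and animal number came from the titles. Counts were fitted with edgeR 4.0.16 (R 4.3.3; quasi-likelihood F test, TMM, filterByExpr) over 17142 genes, with Benjamini-Hochberg adjustment over all of them and an adjusted p under 0.05 as the call. Differences in log2 are KO minus WT, their SE is the absolute value over the root of F, and log2 CPM used a prior count of 2. One count was worth 0.0629 to 0.0734 CPM. Alternatives used DESeq2 1.42.0, limma 3.58.1, other scalings and filters, and libraries left out. The fit was tested on simulated data. There it recovered 28% of 1.5-fold, 64% of 2-fold, 96% of 4-fold and 92% of 8-fold changes, and 4 of 144 calls were false. Exons came from GENCODE M21 and promoter windows from RefSeq. The named genes are the 10 members, Slc39a14, the called genes of each pathway list or else its 2 most abundant, and the 3 genes most like each metallothionein; others are said to be chosen after their values were seen, or are cell type markers and low genes given as checks. The members and lists were chosen with earlier results of these data known.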

Additional observations from a re-analysis of the deposited data

How the results depend on the processing

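No paired analysis was possible because the groups share no animal number. Under 15 alternatives, 126 of 149 recomputed fold changes of the 10 genes kept their direction, 23 changed sign, and 0 passed the test (smallest adjusted p 0.989); Mt2 had too few counts for the filter of 10 counts in every library. The cause of the changes in sign was not tested. Leaving out 1 library gave -0.0753 to 0.179 for Slc30a1, 0.231 to 0.600 for Slc30a3, -0.0779 to 0.0890 for Slc30a4, 0.0135 to 0.180 for Slc30a5, -0.0715 to 0.101 for Slc30a6, 0.0423 to 0.218 for Slc30a7, -0.137 to 0.0377 for Slc30a9, -0.175 to 0.236 for Mt1, -0.0337 to 1.05 for Mt2, -0.173 to 0.0223 for Mt3 and -0.0654 to 0.0405 for Slc39a14. Without WT 5 and KO 4 together Slc30a4 was at -0.00253, Slc30a6 at 0.0222, Mt2 at -0.0618 and Slc39a14 at 0.0634. By limma-voom Mt1 was at -0.0244 and Mt2 at 0.807. Slc30a6 was at 0.0029 with upper quartile scaling, 0.0139 with library totals, 0.00203 without the filter and 0.000198 with at least 10 counts in every library. Slc39a14 was at 0.0026, 0.0143, 0.00252 and 0.000816 in the same order. The number of genes called, 8, was 142 without the filter, 5 with at least 10 counts in every library, 38 by DESeq2, 40 without WT 5 and KO 4, and 0 to 28 with 1 library left out (0 without WT 1 or WT 3, 28 without WT 5, 17 without KO 4, 3 without KO 6 and 2 without KO 2). Of the other zinc handling genes 1 was called without the filter (Slc39a4, log2 fold change 2.14, adjusted p = 0.0176), and 0 otherwise. The level of Slc39a4 was low in every library. Correlations changed sign without the 2 libraries farthest from the median, to 0.41 for Mt1 and Mt2 and -0.41 for Mt1 and Mt3. The number of neighbouring levels told apart was 7 of 9 with the deposited length and also with that of the principal transcript, chosen after seeing the data, but the pairs differed: Slc30a6 and Slc30a1 were lost, and Slc30a7 and Mt2 gained. CPM per kilobase uses the deposited lengths, so it cannot change a ratio within a library. Depth limits Mt2 and Slc30a3 most.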
